A study of Homo sapiens with 12 samples.

Results

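The HOX genes encode homeodomain transcription factors and lie side by side in 4 clusters, HOXA, HOXB, HOXC and HOXD. In the embryo they are switched on in the order in which they sit along the chromosome, and they give cells along the body axis their positional identity. Members at the same place in different clusters are paralogs with closely related homeodomains, and most bind DNA together with the TALE homeodomain proteins of the PBX and MEIS families. In blood formation, several HOXA and HOXB genes are known for their activity in stem and progenitor cells and for a decline as cells mature. The family was selected on the values of HOXB9, which had a lower signal with EBF1 in 1 of the cell lines, L-1236. That comparison is therefore described with values and without a test. The array annotation gave a row to 29 of the 38 HOX symbols listed, on 28 of the 20546 rows that carry a gene symbol. HOXA had 1 row (HOXA2), HOXB 10, HOXC 8 and HOXD 9, and 1 HOXC row lists HOXC4 and HOXC6 together. The other 9 listed symbols, all HOXA genes (HOXA3, HOXA4, HOXA5, HOXA6, HOXA7, HOXA9, HOXA10, HOXA11 and HOXA13), had no row in the annotation used and were not analysed here.

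L-428 and L-1236 are established cell lines grown from Hodgkin lymphoma, a B-cell tumour whose cells have lost much of the B-cell programme. EBF1 is a transcription factor that specifies the B lineage. Each line was transduced either with tGFP and EBF1, joined by an internal ribosome entry site so that the fluorescent protein marks cells with the transgene, or with tGFP alone. The groups were L-428 tGFP/EBF1, L-428 tGFP, L-1236 tGFP/EBF1 and L-1236 tGFP, with 3 arrays each. All cells were sorted for tGFP after 8 days of culture, so the controls carry a transduced construct too. The design text calls the samples independent without saying what separates them, so the p-values measure the spread between these samples, which may be partly technical. The labels name no promoter of the construct, and each line is 1 culture-adapted tumour, so that a difference between the lines is one between 2 cell lines.

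The row that carries EBF1, which also lists PDGFRB, had a mean log2 signal of 12.96 in L-428 tGFP/EBF1, against 8.45 in L-428 tGFP. In L-1236 the means were 13.15 with tGFP/EBF1 and 7.17 with tGFP. Array medians lay between 7.19 and 7.31 on the log2 scale. L-428 tGFP replicate 3 and L-1236 tGFP/EBF1 replicate 1 had narrower distributions than the other arrays of their groups, with interquartile ranges of 2.28 and 2.17. Of 8 Hodgkin and B-lineage marker genes, 7 lay above the 95th percentile of 369 olfactory receptor rows in every group, and MS4A1, the gene of CD20, did not. None of 4 T-cell and none of 4 myeloid markers did so in any group, while 3 of 4 epithelial markers (KRT8, KRT18 and CDH1) and 3 of 4 stromal markers (COL1A1, COL1A2 and COL3A1) did so in all groups. EPCAM and DCN did not. Among the Hodgkin and B-lineage markers counted, CD79A was close to the percentile with tGFP alone. Its mean was 6.96 in L-428 tGFP, against a percentile of 6.91. In L-1236 tGFP its replicate 3 array, at 6.92, lay below the percentile of 6.98. With tGFP/EBF1 the CD79A means were 7.19 in L-428 and 8.19 in L-1236, above the percentile of each group. The array medians over all rows lay above that percentile too, so a signal above it was common among all rows.

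Olfactory receptor rows served to describe the level of rows with presumably little transcript, since no detection calls were used. Their 95th percentile was 6.95 in L-428 tGFP/EBF1 and 6.91 in L-428 tGFP, and 6.96 in L-1236 tGFP/EBF1 and 6.98 in L-1236 tGFP. The HOX rows whose group mean lay above this level numbered 16 of 28 in both L-428 groups, 18 in L-1236 tGFP/EBF1 and 17 in L-1236 tGFP. The array medians over all rows, 7.19 to 7.31, also lay above this level, so a signal above it was common among all rows. The exact share of all rows was not computed, so these counts do not set the HOX rows apart. HOXA2, HOXB2, HOXB5, HOXB6, HOXC11, HOXC12, HOXC13 and HOXD12 were at or below this level in all 4 groups. HOXB1, HOXD3, HOXD10 and HOXD11 were at or below it in L-428 alone, HOXC9 and HOXC10 in both L-1236 groups alone, and HOXC8 in L-1236 tGFP alone. Fold differences of a row at this level are measured against a signal that may not come from its transcript. A signal above the level does not show a transcript either. Of 13 measured comparison genes of tissues far from lymphoid cells, GFAP lay above it in every group, with means of 7.03 to 7.14. NPPB also did so in L-1236 tGFP/EBF1 (7.04), and the others did not. In these bulk RNA samples, fewer cells with a transcript and less transcript per cell cannot be told apart.

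**Figure D1:**
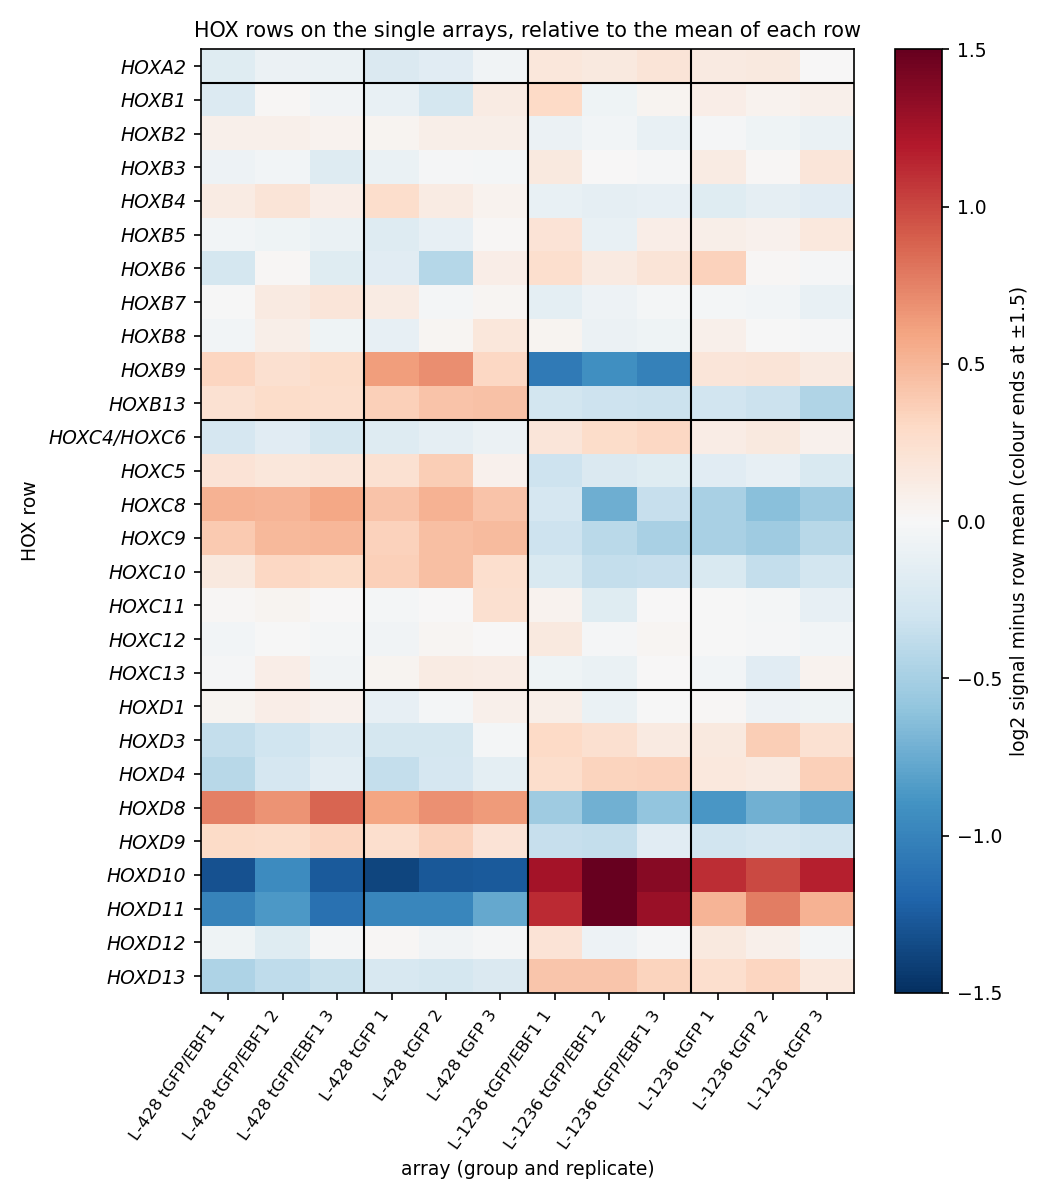
Log2 signal of each of the 28 HOX rows on each of the 12 arrays, minus the mean of that row over all arrays. Rows run by cluster and paralog number, columns by group, and the colour scale ends at 1.5 in both directions. HOXD10 and HOXD11 are low on all L-428 arrays and high on all L-1236 arrays, HOXD8 shows the opposite, and HOXB9 is lowest on the 3 L-1236 tGFP/EBF1 arrays.

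HOXB9, a member of paralog group 9 near the 5′ end of the HOXB cluster, was the gene that led to the choice of the family. Its log2 signal was 9.45, 9.58 and 9.49 on the L-1236 tGFP/EBF1 arrays, against 10.68, 10.70 and 10.64 on the L-1236 tGFP arrays. All arrays with EBF1 lay below all control arrays, and the groups were about a whole log2 unit apart. The mean was 9.51 ± 0.0687 with tGFP/EBF1 and 10.67 ± 0.0323 with tGFP (SD, n = 3 each). This is a log2 change of -1.17 (SE 0.0791), or a 2.24-fold lower signal with EBF1. Without L-1236 tGFP/EBF1 replicate 1, one of the arrays with a narrower distribution, the change was -1.13.

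In L-428, HOXB9 read 10.83, 10.74 and 10.78 with tGFP/EBF1, against 11.13, 11.19 and 10.82 with tGFP. The groups overlapped, because the tGFP array of replicate 3 lay among the EBF1 arrays. The log2 change was -0.27 (SE 0.0791), with a 95% confidence interval of -0.43 to -0.10, and did not pass in limma (adjusted p = 0.0683, Benjamini-Hochberg over all 20546 rows). That control array is the one with the narrow distribution. Without it the change was -0.38 with an adjusted p of 0.000846 (limma), so the call changed when this array was left out. With all arrays kept, the call also changed with the processing. HOXB9 passed after quantile normalization (adjusted p = 0.00158) and with array weights, but not after median centring (adjusted p = 0.264). Over all alternatives of the processing the adjusted p ranged between 8.92e-05 and 0.300. The difference between the HOXB9 changes of the 2 lines was not tested, because it contains the comparison behind the choice of genes.

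HOXB8, the neighbour of HOXB9, and the measured paralogs of group 9 are set beside it. In L-1236, HOXB8 averaged 7.64 with tGFP/EBF1 and 7.70 with tGFP, HOXC9 averaged 6.58 with tGFP/EBF1 and 6.50 with tGFP, and HOXD9 averaged 8.43 with tGFP/EBF1 and 8.44 with tGFP. The arrays of both groups overlapped in all 3 genes. HOXC9 lay below the 95th percentile of the olfactory receptor rows in L-1236, while HOXB8 and HOXD9 lay above it.

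**Figure D2:**
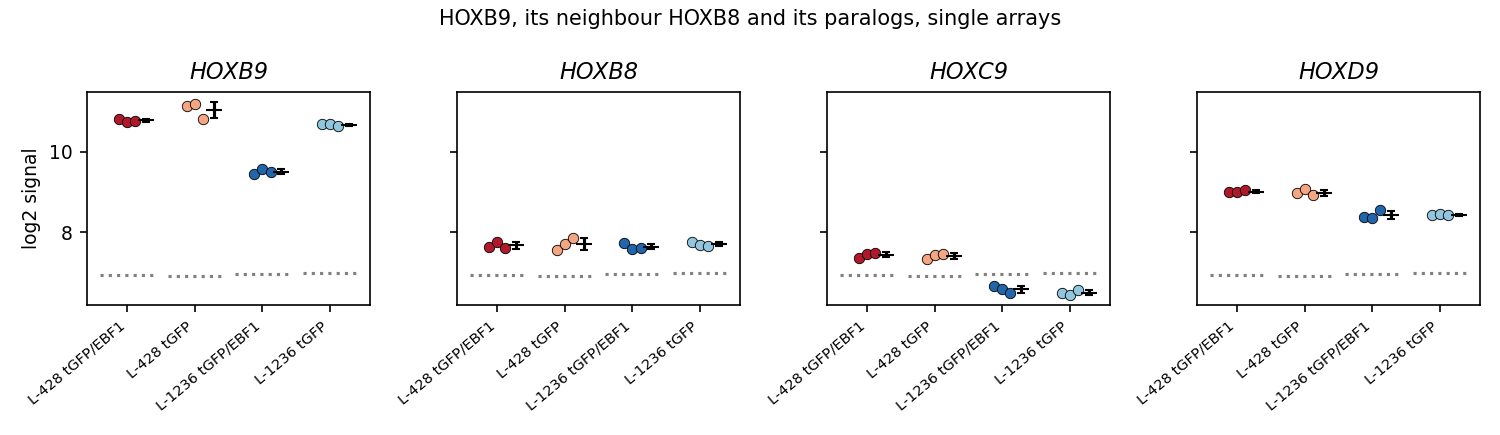
Log2 signal of HOXB9, its neighbour HOXB8 and the paralogs HOXC9 and HOXD9 on single arrays in the 4 groups. Bars beside the points give the mean and SD of 3 arrays, and dotted lines mark the 95th percentile of the olfactory receptor rows. The HOXB9 points of L-1236 tGFP/EBF1 lie between 9.45 and 9.58, below those of the other groups.

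Apart from HOXB9, the HOX rows in L-1236 differed little between tGFP/EBF1 and tGFP arrays, with HOXD11 and HOXD10 as the larger changes. HOXB9, on whose values in this comparison the family was selected, was the 1 row of 28 past 2-fold. Without it the count was 0 of 27, against 0.146% of all rows (30 of 20546). The nearest row inside that limit was HOXD11, a posterior HOXD gene known for its part in limb patterning. HOXD11 read 8.91, 9.29 and 9.09 with tGFP/EBF1, against 8.30, 8.57 and 8.32 with tGFP. All arrays with EBF1 were higher, and the log2 change was 0.70 (SE 0.0963), or 1.63-fold. Its neighbour HOXD10 read 9.04, 9.34 and 9.16 with tGFP/EBF1, against 8.90, 8.79 and 8.96 with tGFP. These groups did not overlap either, with a log2 change of 0.30 (SE 0.0898). Without L-1236 tGFP/EBF1 replicate 1 the changes were 0.79 for HOXD11 and 0.37 for HOXD10.

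In all, 6 HOX rows were higher on every L-1236 tGFP/EBF1 array than on every L-1236 tGFP array, which held for 11.6% of all rows. Beside HOXD11 and HOXD10 these were HOXD8 (0.18), the HOXC4 and HOXC6 row (0.15), HOXD13 (0.14) and HOXA2 (0.07), all as log2 changes. HOXB9 was the only member lower on every array, which held for 15.1% of all rows. The arrays of all other members overlapped between the groups. The lowest log2 change after HOXB9 was -0.07 for HOXC5. The median log2 change of the 28 rows was 0.02, and that of all rows 0.01.

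In L-428, no HOX row passed the test for EBF1. The count was 0 of 28 in limma at an adjusted p of 0.05 or less, against 4.34% of all rows (892 of 20546). At an unadjusted p under 0.05 the count was 3 of 28 (HOXB9, HOXB13 and HOXD13), against 14.3% of all rows. Log2 changes lay between -0.27 for HOXB9 and 0.13 for HOXD10, with a median of -0.02 beside 0.00 over all rows. The median size of a change, regardless of sign, was 0.058 for the HOX rows and 0.056 for all rows. The 95% confidence intervals of the 28 rows stayed between -0.43 and 0.32, so that a 2-fold change of the signal lay outside each of them. For the rows at or below the level of the olfactory receptor rows in L-428, this may not hold for the transcript.

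HOXB13 and HOXD13 mark the 5′ ends of their clusters. HOXB13 read 7.63, 7.67 and 7.67 with tGFP/EBF1, against 7.76, 7.82 and 7.84 with tGFP in L-428. HOXD13 read 7.26, 7.34 and 7.39 with tGFP/EBF1, against 7.47, 7.46 and 7.50 with tGFP. Both had every EBF1 array below every control array, which held for 6.98% of all rows. Each had a log2 change of -0.15, with an adjusted p of 0.210 for HOXB13 and 0.229 for HOXD13 (limma). HOXD11, at the level of the olfactory receptor rows in L-428, read 6.79, 6.94 and 6.68 with tGFP/EBF1, against 6.82, 6.82 and 7.03 with tGFP, and the groups overlapped.

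**Figure D3:**
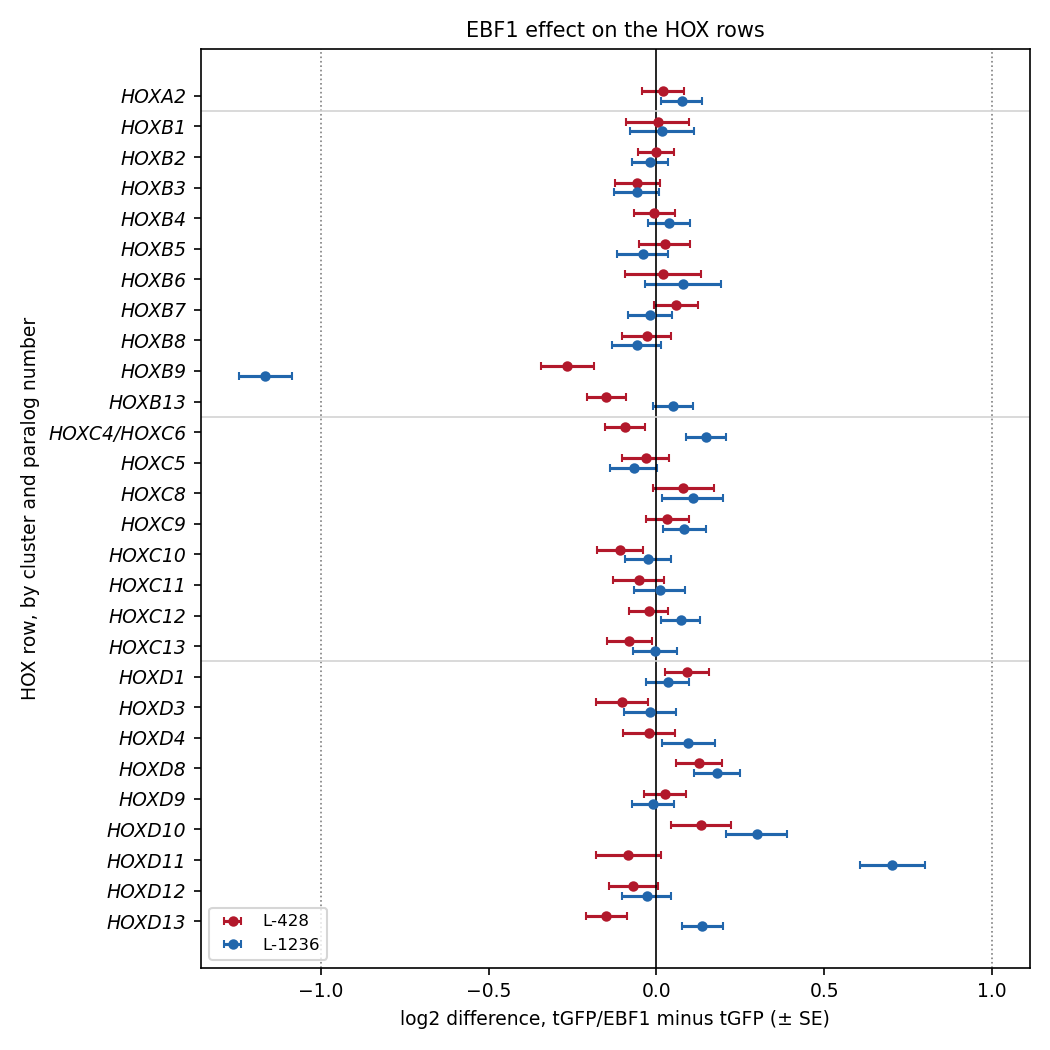
Log2 change of each HOX row, tGFP/EBF1 minus tGFP, in L-428 and L-1236, with the standard error of the limma fit. Dotted lines mark a 2-fold change. HOXB9 in L-1236 (-1.17) is the one point past a dotted line, and the L-428 points lie between -0.27 and 0.13.

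Most HOX rows differed between the 2 lines. With tGFP, 18 of 28 rows passed the test of L-428 against L-1236, against 47.9% of all rows. Of these 9 were higher and 9 lower in L-428, against 26.1% higher and 21.7% lower among all rows. The split was 12 higher and 7 lower both after quantile normalization and after centring each array on its median. With tGFP/EBF1, 19 rows passed, against 50.5% of all rows, with 11 higher and 8 lower in L-428, against 28.2% and 22.3%. HOXB9 is counted in these numbers but given no p-value, since its L-1236 values led to the choice. Without it the counts were 17 of 27 rows with tGFP and 18 of 27 with tGFP/EBF1. The other comparisons use the same L-1236 arrays as the one behind the choice.

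Past 2-fold at an adjusted p of 0.05 or less were 4 of 28 rows with tGFP, against 7.2% of all rows. HOXC8 and HOXD8 were higher in L-428, and HOXD10 and HOXD11 lower. With tGFP/EBF1, HOXD8, HOXD10 and HOXD11 were past 2-fold, 3 of 27 rows without HOXB9, against 7.65% of all rows. HOXB9 was past 2-fold there too, through the L-1236 values on which the family was selected. The median size of the line difference with tGFP was 0.29 for the HOX rows and 0.16 for all rows on the log2 scale.

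The HOXD cluster held both the most positive and the most negative line differences of the family, and neighbouring genes went opposite ways. Along chromosome 2 the genes run HOXD13, HOXD12, HOXD11, HOXD10, HOXD9, HOXD8, HOXD4, HOXD3 and HOXD1. The promoters of HOXD8, HOXD10 and HOXD11 are shown because these genes of 1 cluster had the most positive and the 2 most negative line differences. They are RefSeq sequences of assembly GRCh38.p14, plus strand, 250 bases before to 50 after the gene start. HOXD8 is chr2:176129455-176129754, HOXD10 is chr2:176116528-176116827 and HOXD11 is chr2:176107030-176107329. Capitals mark matches to CCCNNGGG, the core of the EBF1 motif, to TGATTNAT, a motif of HOX and PBX proteins, and to TATAA.

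HOXD8 promoter: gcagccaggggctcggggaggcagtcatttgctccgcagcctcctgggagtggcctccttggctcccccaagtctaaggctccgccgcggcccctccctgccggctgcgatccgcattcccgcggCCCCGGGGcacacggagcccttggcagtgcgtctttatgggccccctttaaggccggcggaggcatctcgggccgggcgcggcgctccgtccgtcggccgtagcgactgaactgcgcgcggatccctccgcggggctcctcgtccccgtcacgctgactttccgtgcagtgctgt

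HOXD10 promoter: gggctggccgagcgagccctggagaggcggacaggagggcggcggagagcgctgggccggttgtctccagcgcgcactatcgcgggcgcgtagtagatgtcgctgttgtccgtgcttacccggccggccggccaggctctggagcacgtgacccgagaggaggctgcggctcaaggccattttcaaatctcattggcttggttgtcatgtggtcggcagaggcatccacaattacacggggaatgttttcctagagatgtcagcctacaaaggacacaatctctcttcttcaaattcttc

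HOXD11 promoter: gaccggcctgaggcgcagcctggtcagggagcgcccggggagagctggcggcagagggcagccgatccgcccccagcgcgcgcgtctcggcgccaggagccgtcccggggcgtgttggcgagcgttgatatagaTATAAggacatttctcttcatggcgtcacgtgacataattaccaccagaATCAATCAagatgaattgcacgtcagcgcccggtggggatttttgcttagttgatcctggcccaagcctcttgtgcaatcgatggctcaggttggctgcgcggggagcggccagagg

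All 3 windows are rich in G and C, with 71.7% for HOXD8, 60.0% for HOXD10 and 62.3% for HOXD11. HOXD8 held 34 CG pairs, HOXD10 23 and HOXD11 27, beside a median of 14 in all 35116 promoters and of 21 in the 12 HOX promoters with an entry. CCCNNGGG, searched on both strands, was found in the HOXD8 window and in 19.1% of all promoters. Among the 12 HOX promoters it was also in that of HOXD13. These 12 are of the 29 HOX genes with a row. HOXB9 had no promoter entry, so its promoter was not searched for any of the 3 motifs. TGATTNAT was found in HOXD11 and HOXA2 and in 2.82% of all promoters, and TATAA in HOXD11 and HOXD13 and in 20.4% of all promoters. The HOXD10 window held none of the 3 motifs. A match is a string of letters and not evidence of binding.

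HOXD10, whose product patterns limb and spinal cord, read 6.48, 6.85 and 6.54 in L-428 tGFP/EBF1, against 9.04, 9.34 and 9.16 in L-1236 tGFP/EBF1. With tGFP it read 6.42, 6.52 and 6.53 in L-428, against 8.90, 8.79 and 8.96 in L-1236. All L-428 arrays were low, at the level of the olfactory receptor rows, and all L-1236 arrays were high. The log2 difference, L-428 minus L-1236, was -2.39 with tGFP (SE 0.0898, 5.24-fold, limma adjusted p = 4.77e-14) and -2.56 with tGFP/EBF1 (5.88-fold, adjusted p = 1.83e-14). HOXD11 differed by -1.51 with tGFP (2.84-fold, adjusted p = 1.24e-10) and by -2.29 with tGFP/EBF1 (4.90-fold, adjusted p = 2.5e-13). Its arrays, given above for each line, did not overlap between the lines.

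HOXD8, 3′ of HOXD10 and HOXD11, read 8.74, 8.67 and 8.87 in L-428 tGFP/EBF1, against 7.46, 7.28 and 7.40 in L-1236 tGFP/EBF1. With tGFP it read 8.59, 8.68 and 8.63 in L-428, against 7.12, 7.27 and 7.22 in L-1236. The L-428 arrays were all higher, by 1.43 with tGFP (SE 0.0685, 2.70-fold, limma adjusted p = 1.78e-12) and by 1.38 with tGFP/EBF1 (2.60-fold, adjusted p = 3.06e-12), both on the log2 scale. HOXD9, between HOXD8 and HOXD10 on the chromosome, was also higher in L-428. It averaged 8.99 in L-428 tGFP and 8.44 in L-1236 tGFP, a log2 difference of 0.55 (adjusted p = 4.8e-07). The sign of the line difference thus changed between HOXD9 and HOXD10.

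The remaining HOXD rows were lower in L-428 or did not pass. HOXD13 read 7.47, 7.46 and 7.50 in L-428 tGFP, against 7.98, 8.05 and 7.88 in L-1236 tGFP. This is a log2 difference of -0.49 (adjusted p = 1.13e-06, limma), and it was -0.78 with tGFP/EBF1 (adjusted p = 2e-09). HOXD4 and HOXD3, whose annotated spans overlap so that their signals may not be independent, differed by -0.47 and -0.43 with tGFP, and both passed. HOXD12, between HOXD13 and HOXD11, was at the level of the olfactory receptor rows in both lines and differed by -0.08. HOXD1 differed by 0.02, and neither of these 2 rows passed with tGFP or with tGFP/EBF1. After median centring HOXD1 passed with tGFP/EBF1, higher in L-428.

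**Figure D4:**
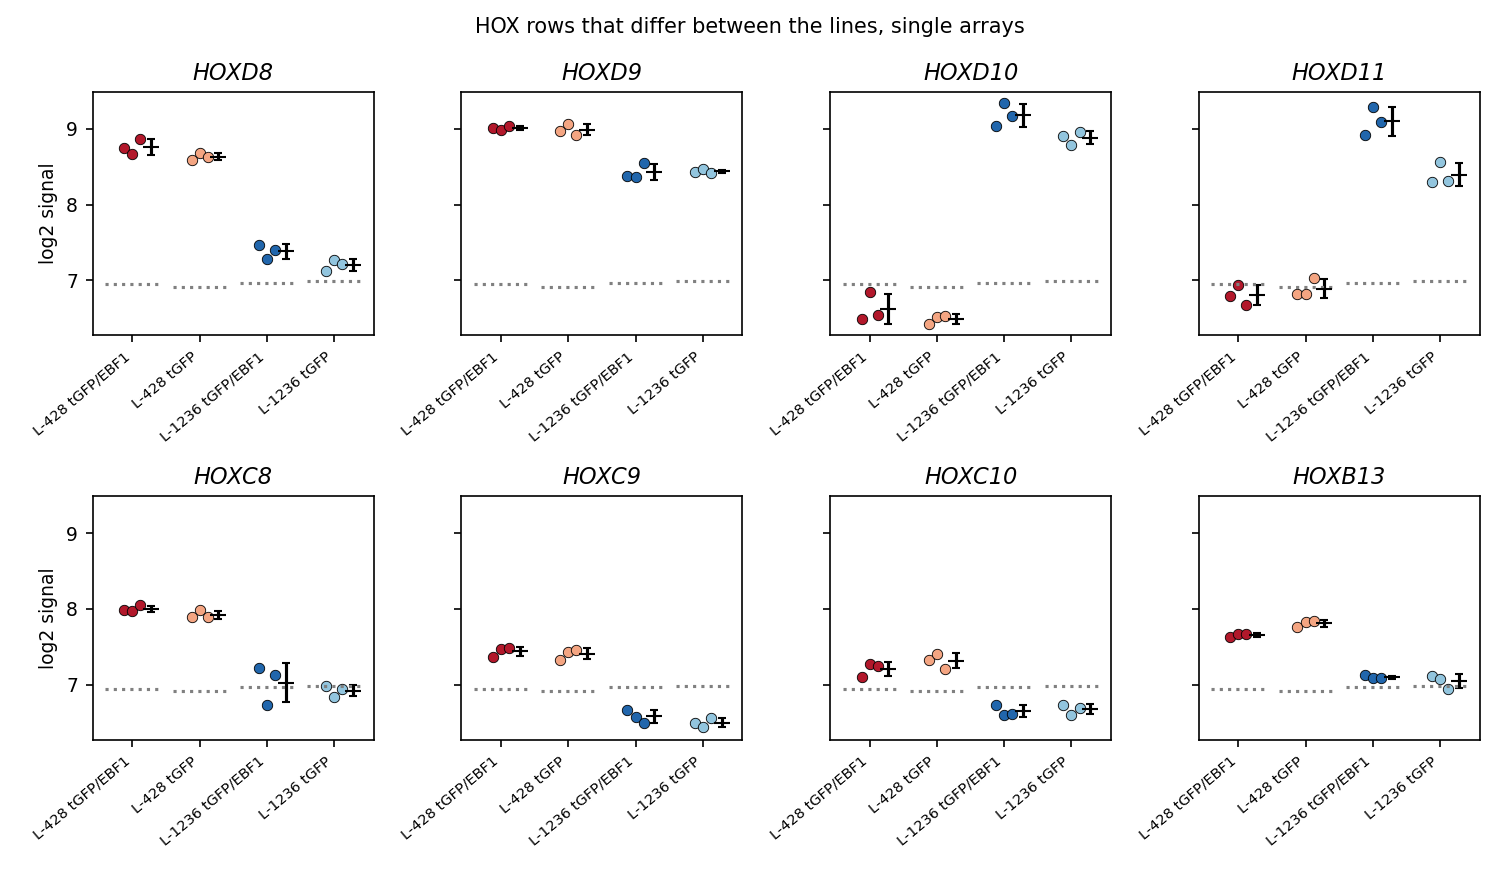
Log2 signal on single arrays of 8 HOX rows that passed the test between the lines, with mean and SD of 3 arrays beside the points. Dotted lines mark the 95th percentile of the olfactory receptor rows in each group. HOXD10 and HOXD11 lie near or below that line in L-428 and HOXC9 and HOXC10 below it in L-1236.

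In the HOXC cluster a run of adjacent genes was higher in L-428. HOXC8, which patterns the thoracic axis, read 7.99, 7.97 and 8.04 in L-428 tGFP/EBF1, against 7.22, 6.74 and 7.12 in L-1236 tGFP/EBF1. With tGFP it read 7.89, 7.98 and 7.89 in L-428, against 6.98, 6.83 and 6.94 in L-1236. The lines did not overlap, and the log2 difference was 1.00 with tGFP (SE 0.0906, 2.01-fold, limma adjusted p = 1.7e-08) and 0.98 with tGFP/EBF1 (1.97-fold, adjusted p = 2.35e-08). In L-1236 tGFP the HOXC8 mean of 6.92 lay below the 95th percentile of the olfactory receptor rows (6.98). In L-1236 tGFP/EBF1 the mean of 7.02 lay just above that level (6.96). The place of HOXC8 at the 2-fold limit was not stable. With tGFP it was under 2-fold without L-428 tGFP replicate 2 (0.97) or without L-1236 tGFP replicate 2 (0.96). With tGFP/EBF1 it was past 2-fold after quantile normalization (1.02), after median centring (1.05), without L-1236 tGFP/EBF1 replicate 1 (1.07) and without L-1236 tGFP/EBF1 replicate 3 (1.02).

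HOXC9 read 7.32, 7.43 and 7.46 in L-428 tGFP, against 6.49, 6.44 and 6.56 in L-1236 tGFP. Its log2 difference was 0.91 with tGFP (adjusted p = 5.4e-10, limma) and 0.86 with tGFP/EBF1. HOXC10 read 7.32, 7.41 and 7.21 in L-428 tGFP, against 6.73, 6.60 and 6.69 in L-1236 tGFP. Both were higher on every L-428 array, while in L-1236 they were at the level of the olfactory receptor rows. The difference of HOXC10 was 0.64 with tGFP (adjusted p = 1.85e-07) and 0.56 with tGFP/EBF1. HOXC5 was higher in L-428 by 0.39 with tGFP, with mean signals of 8.33 in L-428 and 7.94 in L-1236. The row of HOXC4 and HOXC6 was lower in L-428 by 0.24 on the log2 scale, with 7.65 in L-428 tGFP and 7.89 in L-1236 tGFP. The annotated spans of HOXC4, HOXC5 and HOXC6 overlap, so which transcripts their probes share is uncertain. HOXC11, HOXC12 and HOXC13, at the 5′ end, did not pass with tGFP or with tGFP/EBF1 and stayed at the level of the olfactory receptor rows in every group. HOXC11 and HOXC13 passed, higher in L-428, after quantile normalization in both comparisons and after median centring with tGFP.

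In the HOXB cluster, HOXB13 had the widest line difference among the tested rows. It is known as a posterior gene with high expression in prostate and colon. It read 7.76, 7.82 and 7.84 in L-428 tGFP, against 7.12, 7.08 and 6.95 in L-1236 tGFP. The L-428 arrays were all higher, with a log2 difference of 0.76 with tGFP (SE 0.0589, 1.69-fold, limma adjusted p = 2.02e-09) and 0.56 with tGFP/EBF1 (adjusted p = 1.26e-07). HOXB9 had a line difference of 0.37 with tGFP and of 1.27 with tGFP/EBF1, given without a test. The other HOXB rows differed less. With tGFP, HOXB4, a gene known in blood stem cells, was higher in L-428 by 0.30 (adjusted p = 0.000333), and HOXB6 (-0.28) and HOXB5 (-0.20) were lower, with adjusted p-values of 0.0488 and 0.0350. HOXB6 and HOXB5 lost their calls under both scalings, and HOXB5 did not pass with tGFP/EBF1. HOXB1, HOXB3 and HOXB8 did not pass with tGFP or with tGFP/EBF1. The annotated spans of HOXB3 and HOXB4 overlap, so their signals may not be independent. HOXB2 and HOXB7 did not pass with tGFP but were higher in L-428 with tGFP/EBF1, by 0.15 (adjusted p = 0.0266, limma) and 0.18 (adjusted p = 0.0259). HOXB2 also passed with tGFP under both scalings. HOXA2, the single HOXA row, was at the level of the olfactory receptor rows and lower in L-428 by 0.24 with tGFP (adjusted p = 0.00288).

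**Figure D5:**
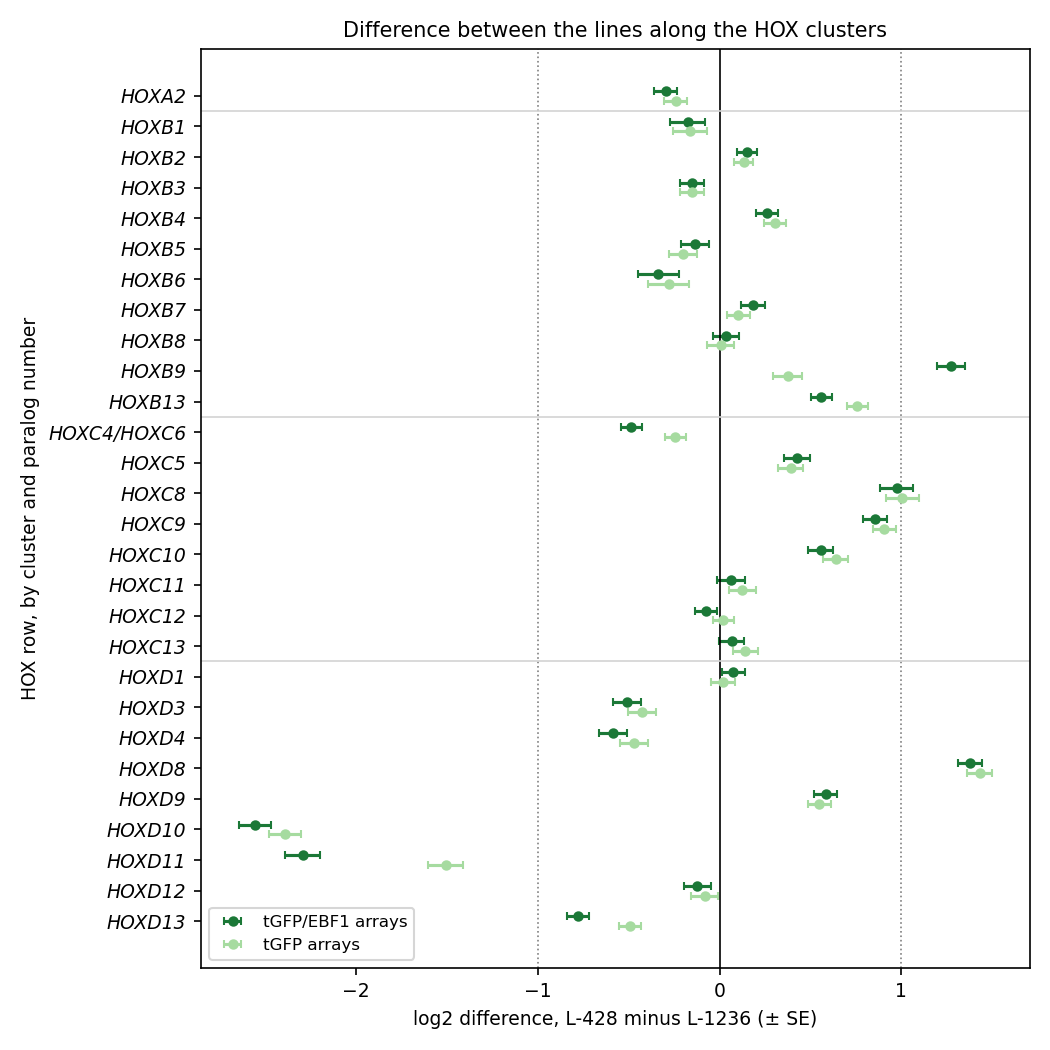
Log2 difference between the lines, L-428 minus L-1236, of each HOX row with tGFP/EBF1 and with tGFP, with the standard error of the limma fit. Rows run by cluster and paralog number, and dotted lines mark a 2-fold difference. HOXD8 (1.43 with tGFP) lies at the right and HOXD10 (-2.39) and HOXD11 (-1.51) at the left, with HOXD9 between them on the positive side.

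The line differences with tGFP/EBF1 and with tGFP come from separate arrays, and they ran in parallel. Across the 28 rows Pearson's r was 0.964 and Spearman's rho 0.975, which describe rows and not independent replicates. The sign was the same in 27 of 28 rows, HOXC12 being the exception. Of the named rows, HOXB9 and HOXD11 moved most between the 2 comparisons.

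The genes known to act with or upon HOX genes were described from lists of their symbols. For EBF1 in L-428, 4.34% of all rows passed, the share to set beside the count of each list. TALE cofactors had 7 of 9 genes measured on rows of their own, and none passed for EBF1 in L-428. MEIS1, a partner of HOX proteins in blood cells, came nearest with a log2 change of -0.12 (adjusted p = 0.506, limma). Between the lines with tGFP, 3 TALE genes were higher in L-428 (MEIS1 by 0.52, MEIS2 and PKNOX1) and PBX4 was lower, by 0.66. These are 4 of 7 genes, against 47.9% of all rows. Factors upstream of HOX genes, the CDX and retinoic acid receptor genes among them, had 5 of 8 measured and none passing for EBF1 in L-428. RARG was nearest, with -0.15 (adjusted p = 0.176), and it was higher in L-428 than in L-1236 by 0.72 with tGFP, the 1 of the 5 that passed between the lines.

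Trithorax-group genes keep HOX genes active and Polycomb-group genes keep them silent. None of 9 measured Trithorax-side genes passed for EBF1 in L-428. The nearest were WDR5 (0.20, adjusted p = 0.112) and RBBP5 (0.19, adjusted p = 0.153), both subunits of histone H3 methyltransferase complexes. Of 7 measured Polycomb-side genes, 1 passed in L-428, against 4.34% of all rows. This was EZH2, the H3K27 methyltransferase. EZH2 averaged 10.65 with tGFP/EBF1 and 10.38 with tGFP in L-428, a log2 change of 0.27 (adjusted p = 0.0493). This call did not hold under 13 of 19 alternatives, with adjusted p-values between 0.00208 and 0.230 over all of them. In L-1236 the log2 change of EZH2 was -0.12, given without a test. Between the lines with tGFP, 4 Trithorax-side genes were higher and 4 lower in L-428, and 3 Polycomb-side genes were higher and 2 lower. Among all rows 26.1% were higher and 21.7% lower. All 9 Trithorax-side and all 7 Polycomb-side genes lay above the level of the olfactory receptor rows in every group. The array medians over all rows did too.

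Non-coding genes of the clusters had 6 of 18 members measured, and none passed for EBF1 in L-428. MIR196A1 lies next to HOXB9 on its 5′ side, and MIR196A2 lies between HOXC9 and HOXC10. Both give the mature miR-196a-5p, known to bind HOXB8 and HOXC8 transcripts, and its sequence is shown because 1 of its genes neighbours HOXB9. The RefSeq positions in GRCh38.p14 are chr17:48632532-48632553 on the minus strand and chr12:53991762-53991783 on the plus strand. Capitals mark the seed, bases 2 to 8.

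hsa-miR-196a-5p: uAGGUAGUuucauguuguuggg

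These rows measure labelled RNA from the gene and not the mature miRNA. MIR196A1 averaged 6.90 with tGFP/EBF1 and 7.06 with tGFP in L-428 (adjusted p = 0.318, limma), and 7.04 with tGFP/EBF1 and 7.05 with tGFP in L-1236. In L-1236 its groups overlapped. MIR196A2 averaged 6.31 with tGFP/EBF1 and 6.21 with tGFP in L-428 (adjusted p = 0.745). Between the lines with tGFP, HOXA-AS2 passed, lower in L-428 by 0.39, at signals below the level of the olfactory receptor rows.

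Genes flanking the clusters had 15 of 16 members measured. For EBF1 in L-428, 1 of the 15 passed, against 4.34% of all rows. This was TTLL6, a tubulin glutamylase gene beyond HOXB13. It read 7.36, 7.48 and 7.52 with tGFP/EBF1, against 7.68, 7.81 and 7.67 with tGFP. TTLL6 fell by 0.26 on the log2 scale (adjusted p = 0.0232, limma), a call lost under 4 of 19 alternatives. In L-1236 it read 8.15, 8.30 and 8.20 with tGFP/EBF1, against 7.80, 7.74 and 7.79 with tGFP. All EBF1 arrays were higher there, by 0.44, which is given without a test.

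Between the lines with tGFP, 7 of the 15 flanking genes were higher in L-428 and 3 lower, against 26.1% higher and 21.7% lower among all rows. PRAC1, between HOXB9 and HOXB13 and known from prostate and colon, was the one past 2-fold. It read 8.33, 8.13 and 8.21 in L-428 tGFP, against 6.84, 7.10 and 6.90 in L-1236 tGFP. The difference was 1.28 with tGFP (adjusted p = 1.62e-11) and 1.15 with tGFP/EBF1 (adjusted p = 7.32e-11), both by limma on the log2 scale. PRAC1 and its neighbour HOXB13 were thus both higher in L-428. In L-1236 tGFP, PRAC1 lay at the level of the olfactory receptor rows. LNPK and MTX2, which flank the HOXD cluster on its 2 sides, were higher in L-428 by 0.74 and 0.78 with tGFP.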

How the data were processed

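Per the labels, RNA of sorted tGFP-positive cells was amplified and biotin-labelled for Affymetrix arrays. The authors deposited 1 log2 value per array and row. The log base is not stated and was taken as 2, because values reach 14.3. For summarization, normalization and genome build, the sources used here give nothing. Of 32321 rows, 20546 carry a gene symbol (19158 with 1, 1388 with several) and were fitted in limma 3.58.1 under R 4.3.3 (lmFit, eBayes, 4 group means, 12 arrays, no block or further scaling). P-values were Benjamini-Hochberg adjusted within each comparison, and rows passed at an adjusted p of 0.05 or less. The number of arrays limits the precision. The fit was tested on simulated data.

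The members and lists were chosen with earlier results of these data known. Genes named are HOXB9 and its paralogs, members passing or past 2-fold, the member with the highest mean in each cluster and line, and listed genes that passed in L-428 or came nearest. Other genes given with values were chosen after their values were seen. Genes in rows with several symbols were not named alone. Where a listed gene had several rows, the brightest stood for it. All 28 HOX rows matched the RefSeq gene table of GRCh38.p14. Results were recomputed with array weights, quantile normalization, arrays centred on their medians, dim rows left out, a trended robust variance, a replicate block and arrays left out.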

Additional observations from a re-analysis of the deposited data

Results flagged for a closer look

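HOXD13 was lower with EBF1 on every L-428 array, by a log2 change of -0.15, and higher on every L-1236 array, by 0.14. EZH2 was higher on every EBF1 array in L-428 (0.27) and lower on every one in L-1236 (-0.12). TTLL6 was lower on every EBF1 array in L-428 (-0.26) and higher on every one in L-1236 (0.44). These 3 genes were picked for this pattern from the HOX rows and the listed genes. Such separation of the arrays was common. In L-428, 6.98% of all rows were lower on every EBF1 array. The L-428 share of rows higher on every EBF1 array, which would apply to EZH2, is not given here. In L-1236, 11.6% of all rows were higher on every EBF1 array and 15.1% lower. The share of rows with opposite directions in the lines was not computed, so chance is not weighed here. The difference between the lines was not tested for these 3 genes, since the L-1236 comparison underlies the choice of the family.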

How the results depend on the processing

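The line differences of HOXB13, HOXC8, HOXC9, HOXC10, HOXD8, HOXD9, HOXD10, HOXD11 and HOXD13, 18 in all with tGFP and with tGFP/EBF1, kept direction and adjusted p call in all 19 alternatives. Other rows gained or lost calls, as given above for the scalings. HOXB9 in L-1236 stayed the 1 row past 2-fold, with changes between -1.20 and -1.13. The count of rows passing between the lines lay between 16 and 22 with tGFP and between 16 and 23 with tGFP/EBF1, and between 16 and 20 and between 16 and 21 with 1 array left out. For EBF1 in L-428 the count of HOX rows was 1 instead of 0, HOXB9, with quantile normalization (-0.26, adjusted p = 0.00158), with array weights (-0.36, 8.92e-05) and without both arrays of narrower distribution (-0.38, 0.000333), the last chosen after seeing the data. Leaving out 1 array gave 0 to 1 such rows. The count of cofactor, regulator and non-coding genes passing in L-428, reported as 1, was 4 with quantile normalization, 0 with median centring, 0 with a trended robust variance, 5 with array weights, 0 with the replicate block, 2 without both arrays and 0 to 2 without 1 array. The cause was not tested. The weights stopped before full convergence.

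Of 12 same-number correlations of deviations from the group means (-0.37 to 0.28), 3 exceeded 0.1, all within a line. They were 0.23 in L-428, and 0.28 and 0.19 in L-1236. The other same-number values within a line were -0.21 and -0.02 in L-428 and -0.07 in L-1236. Different numbers within a line reached 0.31, so the correlations do not decide whether the numbers pair the samples. With the numbers as a block, HOXB9 in L-428 changed by -0.27 (adjusted p = 0.0705).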
